A study of Mus musculus with 2 samples.

Results

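The Mir30 family of mouse comprises 6 miRNA hairpin genes, Mir30a, Mir30b, Mir30c-1, Mir30c-2, Mir30d and Mir30e, which lie in 3 paralogous pairs on chromosomes 1, 4 and 15. They were taken by gene symbol from the 1973 miRNA genes of the deposited tables, and all 6 were found. The tables hold small RNA sequencing of the embryonic facial prominences of B6NCrl mice at embryonic day 10.5, with inserts below 30 nt. One biological replicate was a pool from 51 embryos (replicate 2) and the other a pool from 69 embryos (replicate 1), each with both sexes, described as healthy. No second tissue, stage, genotype or treatment is among these samples. The comparisons are therefore between the Mir30 genes, between the Mir30 family and other miRNA genes, and between the 2 pools.

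MiRNAs are short RNAs cut from a hairpin transcript. Each hairpin has 2 arms, named 5p and 3p, and the bases near the 5′ end of an arm, called the seed, pair with target mRNAs and lower their output. The Mir30 family is known from mouse osteoblast cultures to restrain bone differentiation through Runx2 and Smad1, and from mammalian epithelial cells to hold down Snai1, a driver of the change from epithelium to mesenchyme. In the face, epithelium covers a mesenchyme that derives largely from neural crest and later gives rise to the facial skeleton.

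The RefSeq table (GRCm38.p6) matched 4 of the 6 members, Mir30a, Mir30c-1, Mir30c-2 and Mir30e. Their 5p arms share 1 seed. Outside it the arms of Mir30a, Mir30e and the Mir30c hairpins differ, while Mir30c-1 and Mir30c-2 have the same 5p arm. Mir30b and Mir30d are named only. The mature arms are shown because the counts of the genes depend on which arms can be told apart. Capitals mark the seed, bases 2 to 8, and the sequences run 5′ to 3′.
mmu-miR-30a-5p: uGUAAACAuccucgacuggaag
mmu-miR-30e-5p: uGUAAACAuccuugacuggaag
mmu-miR-30c-5p: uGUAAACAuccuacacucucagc
mmu-miR-384-5p: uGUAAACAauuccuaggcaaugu
mmu-miR-30a-3p: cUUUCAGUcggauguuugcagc
mmu-miR-30e-3p: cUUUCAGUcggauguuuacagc
mmu-miR-30c-1-3p: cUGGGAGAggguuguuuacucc
mmu-miR-30c-2-3p: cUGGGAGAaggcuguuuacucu
The 5p arms of Mir30a and Mir30e differed by a single change, C13U, counted from 1 at the 5′ end of the Mir30a arm. Their 3p arms also differed by a single change, G18A. The 3p arms of Mir30c-1 and Mir30c-2 differed by 3 changes, G9A, U12C and C22U, with the Mir30c-1 base first. The 3p seeds formed 2 groups, one shared by Mir30a and Mir30e and the other by the Mir30c hairpins. Among 1738 mature entries of the table, 4 miRNA names carried the 5p seed. The only one outside the family was mmu-miR-384-5p, of Mir384 on chromosome X. Mir384 itself was low, with 128 CPM in replicate 2 and 134 CPM in replicate 1.

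Mir30c-1 and Mir30c-2 carry the same 5p arm, which bears on how their counts can be read. Their hairpins are shown with the stretch they have in common in capitals.
Mir30c-1: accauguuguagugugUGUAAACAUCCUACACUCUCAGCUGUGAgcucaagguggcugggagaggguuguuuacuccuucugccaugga
Mir30c-2: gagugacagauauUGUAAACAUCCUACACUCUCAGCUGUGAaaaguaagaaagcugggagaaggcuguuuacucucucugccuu
The shared stretch is 28 bases long and holds the whole 5p arm, which is 23 bases long. A read lying within it matches both loci. Reads that map to several places were 25.9% of all reads in replicate 2 and 27.6% in replicate 1, and they are outside the gene counts. The counts of Mir30c-1 and Mir30c-2 are therefore uncertain. How many of those reads came from the shared arm was not tested. The hairpins of Mir30a and Mir30e have at most 18 bases in common, shorter than a mature arm. Their arms differ by single changes, however, and whether the counting allowed a mismatch is not known. How well reads of Mir30a and Mir30e were told apart was not tested.

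Replicate 2 had 8643947 reads, 3517226 of them on the strand of a miRNA gene, and replicate 1 had 6828248 reads, 2853511 of them on such a strand. Levels are CPM, a gene count per 1000000 of such counts. A read of this assay covers about one mature arm, so counts were not divided by hairpin length, and a gene's count adds both arms. Intervals are exact Clopper-Pearson intervals at 95% and cover counting error only, not the spread between libraries. They take reads as independent, while reads copied by PCR are not independent molecules, so they may be too narrow. Markers of the labelled tissue were present. All 7 listed mesenchyme genes and all 7 listed epithelium genes had at least 10 counts in each library. The endothelial miRNA Mir126a was also abundant, with 34369 CPM in replicate 2 and 31642 CPM in replicate 1. Sums of the remaining lists were lower. For erythroid genes the sum was 205 CPM in replicate 2 and 420 CPM in replicate 1, with all 3 genes detected. The neural list had a sum of 630 CPM in replicate 2 and 723 CPM in replicate 1, with 2 of 6 matched genes detected. The leukocyte list reached 419 CPM in replicate 2 and 429 CPM in replicate 1, with both matched genes detected. The striated and cardiac muscle list reached 131 CPM in replicate 2 and 80.6 CPM in replicate 1, with 4 of 8 matched genes detected, led by Mir208b. Of this list Mir133a-1 and Mir133a-2 had a count of 0 in both libraries and Mir1a-1 and Mir133b at most 2 counts. Reads that map to several places are outside these counts, so a low count need not mean absence. Of genes with a RefSeq sequence, 2 of 3 neural and 3 of 5 mesenchyme genes held an arm identical to that of another gene. Mir133a-1 and Mir133a-2 had no sequence to compare. The liver gene Mir122 had 15.4 CPM in replicate 2 and 12.6 in replicate 1.

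All 6 Mir30 genes were detected, at levels that spanned more than 2 orders of magnitude. The family sum was 32086 CPM in replicate 2 and 38471 CPM in replicate 1, with a mean of 35278 ± 4515 CPM (SD, n = 2). This was 3.21% of gene counts in replicate 2 (interval 3.19% to 3.23%) and 3.85% in replicate 1 (3.82% to 3.87%). Nearly all of it came from Mir30e, Mir30a and Mir30d, which together made up 99.0% of the family in replicate 2 and 99.2% in replicate 1. The remaining members, Mir30b, Mir30c-1 and Mir30c-2, had a sum of 322 CPM in replicate 2 and 306 CPM in replicate 1.

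Mir30e was the highest member (ENSMUSG00000065409.1, chromosome 4, 120772606 to 120772697, minus strand, mm10). It lies in an intron of Nfyc, which encodes a subunit of the transcription factor NF-Y. It had 69602 counts, or 19789 CPM, in replicate 2 and 70413 counts, or 24676 CPM, in replicate 1. Mir30e alone held 61.7% of the family in replicate 2 and 64.1% in replicate 1, and it ranked 11 among all genes in replicate 2 and 10 in replicate 1. Its neighbour Mir30c-1 (ENSMUSG00000065490.1, 120769534 to 120769622) lies 3072 bases downstream in an intron of the same host gene. Mir30c-1 had 437 counts, or 124 CPM, in replicate 2 and 335 counts, or 117 CPM, in replicate 1. The strand opposite Mir30e, where the annotation places Mir30f, held 0 counts in both libraries. At 3 counts, the limit set by a count of 0, a level of 0.853 CPM would be possible in replicate 2 and of 1.05 CPM in replicate 1.

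Mir30a was the second highest member (ENSMUSG00000065405.2, chromosome 1, 23272269 to 23272339, plus strand). GENCODE M21 lists no other gene that overlaps it. It had 26918 counts, or 7653 CPM, in replicate 2 and 24966 counts, or 8749 CPM, in replicate 1. Mir30c-2 (ENSMUSG00000065567.1, 23291701 to 23291784) lies 19432 bases downstream in an exon of the long non-coding RNA gene Gm27028. It was the lowest member, with 134 counts, or 38.1 CPM, in replicate 2 and 95 counts, or 33.3 CPM, in replicate 1.

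Mir30d was the third (ENSMUSG00000065437.1, chromosome 15, 68341208 to 68341289, minus strand) and overlaps exons of the long non-coding RNA gene Gm20732 and of Gm37296, a gene model awaiting experimental support. It had 15201 counts, or 4322 CPM, in replicate 2 and 13526 counts, or 4740 CPM, in replicate 1. Mir30b (ENSMUSG00000065476.2, 68337415 to 68337510) lies 3793 bases downstream and overlaps an exon of the non-coding gene Gm26621. Mir30b had 562 counts, or 160 CPM, in replicate 2 and 442 counts, or 155 CPM, in replicate 1. Each genomic pair thus held a member of at least 4322 CPM and a member of at most 160 CPM in both libraries.

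**Figure D1:**
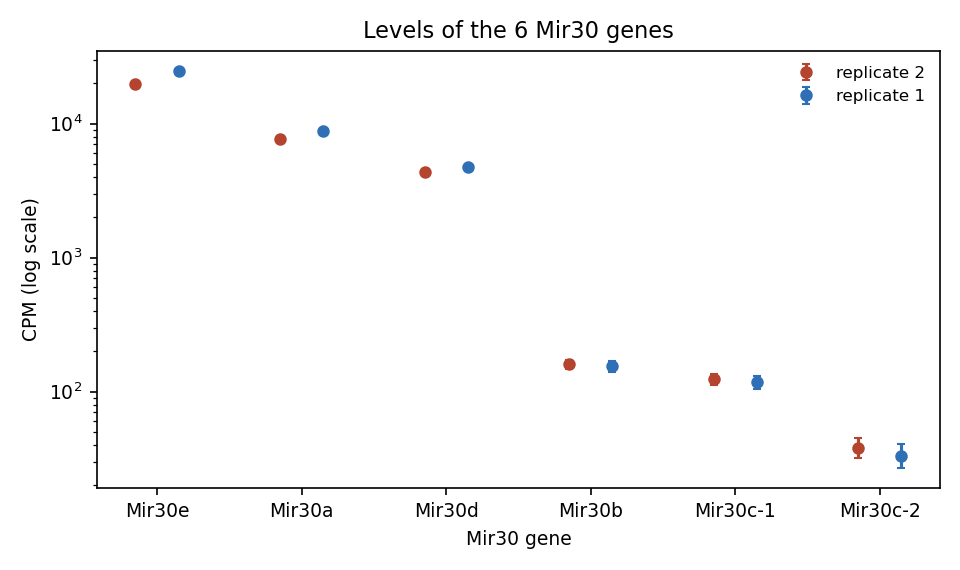
CPM on a log scale for each of the 6 Mir30 genes, in replicate 2 (left point of each gene) and replicate 1 (right point), with exact 95% counting intervals. Mir30e, Mir30a and Mir30d lie between 4322 and 24676 CPM, and Mir30b, Mir30c-1 and Mir30c-2 between 33.3 and 160 CPM.

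The order of the members was the same in both libraries. Mean levels were 22232 ± 3456 CPM for Mir30e, 8201 ± 775 CPM for Mir30a and 4531 ± 296 CPM for Mir30d. They were 157 ± 3.46 CPM for Mir30b, 121 ± 4.84 CPM for Mir30c-1 and 35.7 ± 3.40 CPM for Mir30c-2 (SD, n = 2 for each). At each step of this order the lower library of the higher gene stood above the higher library of the lower gene. The widest step was between Mir30d and Mir30b, with a ratio of 27.0 in replicate 2 and 30.6 in replicate 1. The narrowest was between Mir30b and Mir30c-1, with a ratio of 1.29 in replicate 2 and 1.32 in replicate 1, where the means differed by 36.5 CPM and the larger SD was 4.84 CPM. Since only 2 libraries were made and libraries favour some sequences, these are differences in reads, given without a test.

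Set beside other miRNA genes that share a symbol number, the Mir30 family ranked 6 of 853 groups by mean level. It ranked 7 in replicate 2, behind Mir126, and 6 in replicate 1. The groups above it by mean included those of single hairpins, Mir335 and Mir17. Among families with several paralogs, the Mir26 family had a sum of 26780 CPM in replicate 2 and 27367 CPM in replicate 1. Of that sum 99.8% was Mir26b, while Mir26a-1 and Mir26a-2 have an arm in common. The let-7 family had a sum of 5215 CPM in replicate 2 and 9436 CPM in replicate 1 over 9 matched hairpins, led by Mirlet7g with 61.0%. The Mir29 family, known for repressing collagen genes, had 124 CPM in replicate 2 and 112 CPM in replicate 1, led by Mir29c. By exact match of the RefSeq entries, an arm identical to that of another gene was held by at least 2 of 3 matched Mir26 genes. The same held for at least 2 of 4 Mir29 genes and 4 of 9 let-7 genes. Ranks, sums and shares of families are therefore those of the counted reads and need not hold for all reads of a family.

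**Figure D2:**
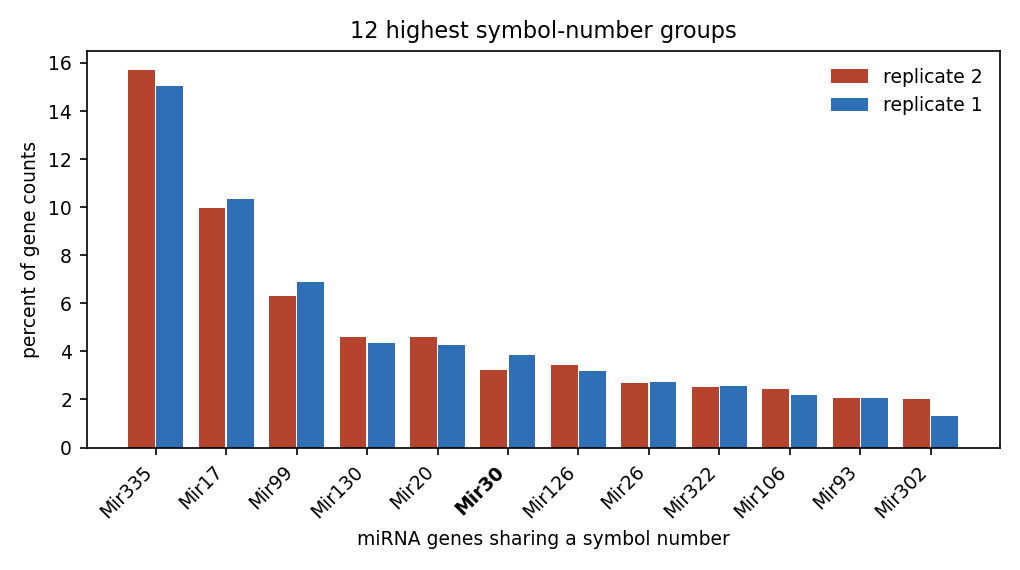
Percent of gene counts held by the 12 highest groups of miRNA genes that share a symbol number, replicate 2 (left bar) and replicate 1 (right bar). The Mir30 group, in bold, reached 3.21% in replicate 2 and 3.85% in replicate 1, next to Mir126.

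The imbalance within the genomic pairs was measured as the count of the higher gene over that of its neighbour in the same library. Mir30a exceeded Mir30c-2 by 201-fold in replicate 2 (interval 170 to 240) and 263-fold in replicate 1 (215 to 325). Mir30e exceeded Mir30c-1 by 159-fold in replicate 2 (145 to 175) and 210-fold in replicate 1 (189 to 235). Mir30d exceeded Mir30b by 27.0-fold in replicate 2 (24.9 to 29.5) and 30.6-fold in replicate 1 (27.8 to 33.7). The first 2 of these ratios rest on the uncertain counts of the Mir30c genes. In all 3 pairs the higher gene lies upstream in the direction of transcription.

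These ratios were set beside those of the other neighbouring miRNA genes, taken as consecutive detected genes on a strand with starts within 30 kb. The median ratio of the 116 other pairs was 6.35-fold, and 13 of them exceeded 100-fold. The Mir30a and Mir30e pairs ranked 8 and 9 of 119 by ratio, and the Mir30d pair ranked 34. The higher gene lay upstream in 60 of the 116 other pairs (51.7%). The lower partners Mir30c-1 and Mir30c-2 share an arm with each other. Of the 13 other pairs above 100-fold, 12 had a lower partner with a RefSeq sequence, and in 7 of these an arm was identical to that of another gene. Over all other pairs this held for 22 of 107. Identical arms were found by exact match of the RefSeq entries, so these are lower bounds. Among 339 detected genes with a sequence, 45 had such an arm, and their median level was 74.9 CPM, against 208 CPM for the others. Neighbouring pairs can share a gene, and some lower partners above 100-fold recur, so the pairs are not independent. These counts are a description, and a part of shared arms in the ratios was not tested.

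**Figure D3:**
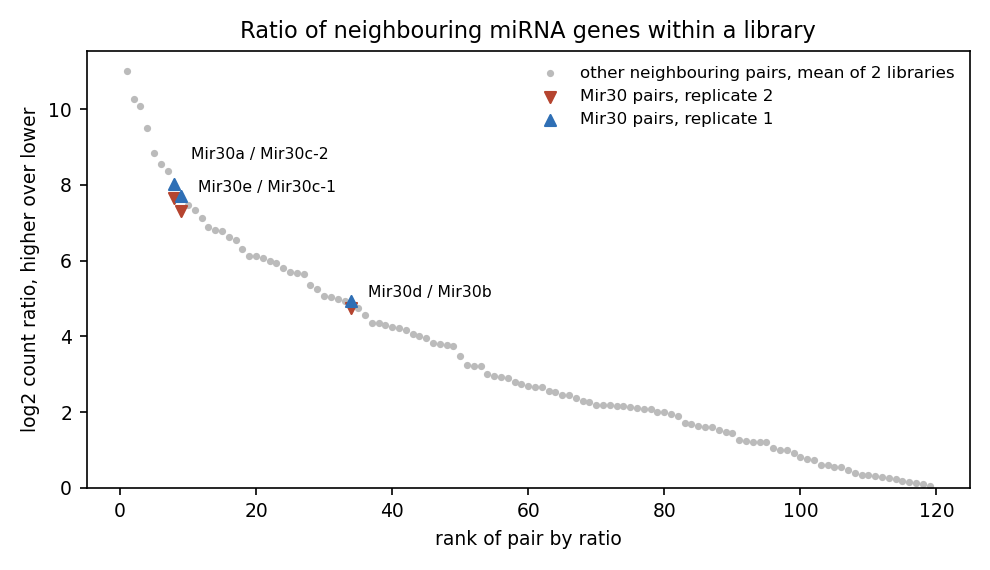
Log2 of the count ratio between neighbouring miRNA genes in the same library, higher over lower, for 119 pairs ranked by the mean of both libraries. The Mir30a and Mir30e pairs, at ranks 8 and 9, lie above 100-fold in replicate 2 (downward triangles) and in replicate 1 (upward triangles), and the Mir30d pair lies at rank 34.

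Between the pools, the abundant members were lower in replicate 2. Mir30e had a log2 ratio of replicate 2 over replicate 1 of -0.32 (interval -0.33 to -0.30), Mir30a of -0.19 (-0.22 to -0.17) and Mir30d of -0.13 (-0.17 to -0.10). As fold values these were 0.802, 0.875 and 0.912. The intervals of the 3 genes, which cover counting error only, did not overlap, with Mir30e the most lowered. The gap was narrow between the upper end for Mir30a (-0.1682) and the lower end for Mir30d (-0.1668). By the exact two-sided binomial test with Benjamini-Hochberg adjustment over 449 genes, all 3 passed. The adjusted p was 4.1e-51 for Mir30a and 3.5e-14 for Mir30d, and for Mir30e it was too small to be held as a number above 0.

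The scarce members gave no call. Mir30b had a log2 ratio of 0.04 (interval -0.14 to 0.23), Mir30c-1 of 0.08 (-0.13 to 0.29) and Mir30c-2 of 0.19 (-0.20 to 0.59). The adjusted p values of the exact binomial test were 0.78, 0.63 and 0.50. All of these intervals include equality, and all lie above the interval of Mir30e. In all, 3 of 6 members passed as lower and 0 as higher. Over all tested genes 20.3% passed as lower, 20.0% as higher and 40.3% in either direction.

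The share called depends on the level. Of the 104 genes averaging 1000 CPM or more, 95 (91.3%) passed, and of the 90 genes between 30 and 200 CPM, 31 (34.4%) did. These bands were chosen after the levels of the members were known. Read against them, a call in either direction on Mir30e, Mir30a and Mir30d is what most genes of that level showed. The share passing as lower was not taken by level, so the common direction of these calls has no such background. By size, 95 of 320 genes averaging 10 CPM or more had a larger absolute log2 ratio than Mir30e (29.7%), and 206 (64.4%) a larger one than Mir30d. The median log2 ratio of the 6 members was -0.04, and that of the 320 genes was 0.02. The test compares 2 libraries beyond counting error, not conditions. With edgeR's exact test and a common dispersion estimated from both libraries (biological coefficient of variation 0.178), 0 of 6 members passed. Their unadjusted p in that test ranged from 0.38 for Mir30e to 0.91 for Mir30b, so 0 members were below 0.05 before adjustment. Of all 449 genes, 21 were and 1 passed (0.223%). The dispersion holds the difference between the same 2 libraries that are compared, so 0 of 6 does not show equality.

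**Figure D4:**
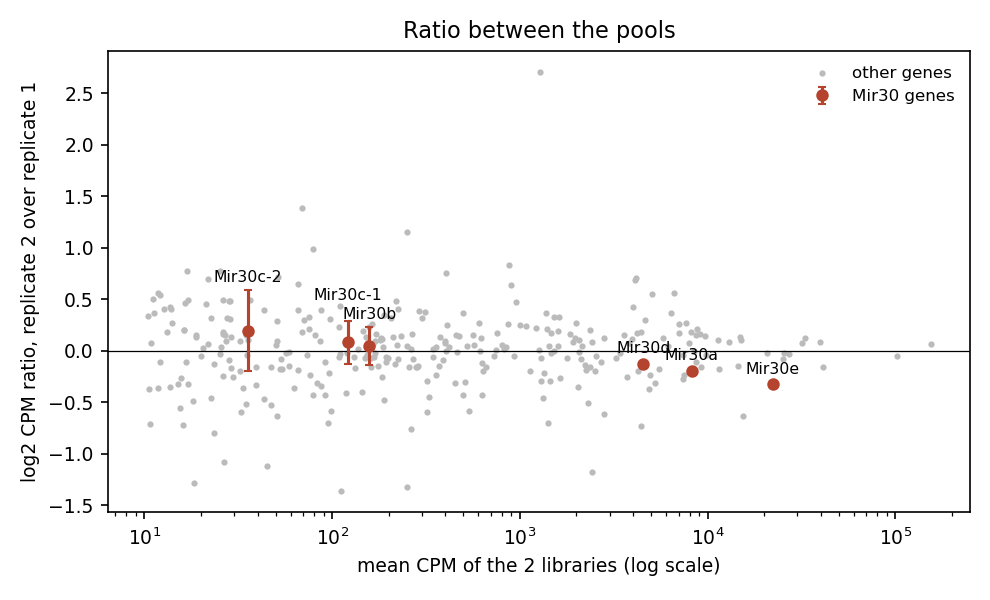
Log2 CPM ratio of replicate 2 over replicate 1 against the mean CPM (log scale) for the 320 genes averaging 10 CPM or more. The Mir30 genes carry exact 95% counting intervals, which lie below 0 for Mir30e, Mir30a and Mir30d and include 0 for Mir30b, Mir30c-1 and Mir30c-2.

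The summed family was 0.834-fold in replicate 2 relative to replicate 1, a log2 ratio of -0.26 (interval -0.27 to -0.25). Without Mir30e the sum was 12297 CPM in replicate 2 and 13795 CPM in replicate 1, a ratio of 0.891. The Mir26 sum had a ratio of 0.979, the Mir29 sum of 1.11 and the let-7 sum of 0.553. Of the let-7 hairpins 6 of 9 tested passed as lower and 0 as higher, with a median log2 ratio of -0.71 over the 8 detected. The difference between the families was not tested. Over all 449 tested genes 20.3% passed as lower and 20.0% as higher, which is the background for the let-7 and marker counts. Of the genes averaging 1000 CPM or more, 91.3% passed in either direction. With edgeR's exact test and a common dispersion 1 of the 449 passed. Marker lists differed in direction between the pools. The epithelium list had a sum of 23965 CPM in replicate 2 and 28691 CPM in replicate 1, a ratio of 0.835, with 6 of 7 genes passing as lower. The mesenchyme list reached 27041 CPM in replicate 2 and 30706 CPM in replicate 1, a ratio of 0.881, with 4 of 7 passing as lower. The erythroid list had a sum of 205 CPM in replicate 2 and 420 CPM in replicate 1, with 1 of 3 genes passing as lower. That gene was Mir451a, with 77.6% of the sum, and the median log2 ratio of the list was -0.16. The neural list had a ratio of 0.871, with 2 genes passing as higher and 2 as lower. Those passing as higher, Mir124a-2 and Mir124a-3, had at most 16 counts in a library and did not meet the detection limit. Those passing as lower, Mir137 and Mir9-3, were detected. The leukocyte list had a ratio of 0.978 with 0 of 2 passing. In the other direction, Mir126a had a ratio of 1.09 and passed as higher. The muscle list had a ratio of 1.63, with Mir208b passing as higher and Mir206 as lower, and Mir122 a ratio of 1.22 that did not pass. Their part in the result was not tested. In pooled tissue, fewer cells of a type and less RNA per cell cannot be told apart.

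Within the pairs, the ratio of the higher to the lower gene was smaller in replicate 2 in all 3 cases. The log2 ratio of replicate 2 minus that of replicate 1 was -0.40 for Mir30e over Mir30c-1, -0.39 for Mir30a over Mir30c-2 and -0.18 for Mir30d over Mir30b. By Fisher's exact test with Benjamini-Hochberg adjustment over 119 neighbouring pairs, the Mir30e pair passed (adjusted p = 0.00068). The Mir30a pair (adjusted p = 0.11) and the Mir30d pair (adjusted p = 0.13) did not. Over all neighbouring pairs 44 of 119 (37.0%) passed, so 1 of 3 is near the background. The share of Mir30a in the family was 23.9% in replicate 2 and 22.7% in replicate 1, and that of Mir30d 13.5% in replicate 2 and 12.3% in replicate 1.

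The genes closest to the members in level over both libraries were found by the distance between log2 CPM values in the 2 libraries. Closest to Mir30e was Mir93, of the Mir106b cluster, at a distance of 0.26. It had 20412 CPM in replicate 2 and 20725 CPM in replicate 1, a log2 ratio of -0.02 where Mir30e had -0.32. Closest to Mir30a was Mir143, with 7851 CPM in replicate 2 and 9047 CPM in replicate 1 (distance 0.061), and closest to Mir30d was Mir140, with 3943 CPM in replicate 2 and 4517 in replicate 1 (distance 0.15). Both are genes of the mesenchyme list, Mir140 being known from cartilage. Closest to Mir30b was Mir222, closest to Mir30c-1 was Mir103-2 and closest to Mir30c-2 was Mir672, at distances of 0.050, 0.076 and 0.056. With 2 libraries this likeness rests on 2 values per gene and many genes lie near each other.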

How the data were processed

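The deposited table of each library gives raw read counts for annotated miRNA genes. Its build is mm10 and its annotation GENCODE M4, as the accompanying text files say. Which aligner and counter made the counts is not given in the sources used here. Of the 3 count columns the one on the gene's strand was used, and the 4 summary lines stayed out of library totals. Symbols, coordinates and overlapping genes were read from GENCODE M21, on the same build, by identifier without version, which matched 1894 of 1973 genes, and sequences from RefSeq. The 6 members and the lists were chosen with earlier results of these data known.

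CPM, ranks, sums, exact intervals, binomial and Fisher tests were computed with Python 3.11.15 and SciPy 1.17.1, and scaling factors and the dispersion test with edgeR 4.0.16 and DESeq2 1.42.0. Detection required 10 counts in both libraries, and testing 10 counts over both together. Log2 ratios of genes used a pseudocount of 0.5 CPM, and the threshold was an adjusted p of 0.05. With n = 2 the SD is the difference of the values divided by the square root of 2. A chi-square test of the counts over genes gave 83.9 per degree of freedom, more than sampling noise, so each library was kept as a replicate. The binomial and Fisher tests were tried on simulated counts with counting error only. That trial does not cover the larger spread between these libraries. The naming rule takes the 6 members, the nearest gene to each by level, the leading gene of each comparison family and overlapping genes by annotation. Other genes named, those of the marker lists, Mir384, Mir335, Mir17, Mir26a-1 and Mir26a-2, lie outside it and were picked with their values known. Alternatives were other scalings, the unstranded count, other filters, pseudocounts and distances, and the edgeR test.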

Additional observations from a re-analysis of the deposited data

How the results depend on the processing

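The 3 calls on Mir30e, Mir30a and Mir30d and their direction were the same under TMM and DESeq2 scaling, unstranded counts, all reads as library size, totals without the 10 highest genes, other count filters and other pseudocounts. With edgeR's exact test and a common dispersion, 0 members passed and the number of genes called was 1, against 181 by the binomial test. That test adds to counting error the spread between the same libraries that it compares, so few calls do not show equality. Dividing by all reads instead of gene counts, a larger total by construction, gave means of 9182 CPM for Mir30e, 3385 CPM for Mir30a, 1870 CPM for Mir30d, 64.9 CPM for Mir30b, 49.8 CPM for Mir30c-1 and 14.7 CPM for Mir30c-2, and 14566 CPM for the family sum. Unstranded counts, whose total is larger, gave 154 CPM for Mir30b. Replicate 2 alone gave 32086 CPM for the family and replicate 1 alone 38471 CPM. No paired analysis was possible because there is 1 group. The scarce members rest on 95 to 562 counts in a library, which makes their intervals wide.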
